A study of Homo sapiens with 12 samples.

Results

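The 5 genes of the Ikaros zinc finger family (IKZF1 to IKZF5, coding for Ikaros, Helios, Aiolos, Eos and Pegasus) and CRBN, which codes for cereblon, were followed in a lymphoma line after an shRNA against IRF4. The genes were taken by name from the table of gene counts, which gave 6 genes of 26318, and each of the 6 passed the filter on low counts in every comparison. Ikaros proteins bind DNA through one group of zinc fingers, pair with one another through a second group at the other end, and recruit the NuRD and SIN3 deacetylase complexes to genes of lymphocyte development. Cereblon is the substrate receptor of a cullin 4 ubiquitin ligase. Lenalidomide and its relatives bind cereblon and redirect the ligase to Ikaros and Aiolos, which are then degraded, and in lymphoma of the activated B cell (ABC) type this treatment is known to lower IRF4, a transcription factor on which these cells depend.

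Poly(A) RNA was sequenced from TMD8, an established human cell line of diffuse large B cell lymphoma of the ABC type, with 6 libraries of cells carrying an shRNA against IRF4 and 6 control libraries carrying a scramble shRNA. Pellets were collected at 24 h, and no drug is named in the labels. The hairpin sequences, the promoter that drives them and whether a selected pool or 1 clone was used are not given in the sources used here. Library names carry a first number of 1 or 2, and the labels do not say whether it stands for a hairpin, a culture or a batch. The 3 IRF4 shRNA and 3 control libraries under each number are called library series 1 and library series 2 (replicates 1 to 3 and 4 to 6 of each group). One label numbers the cell line upward from TMD8 with each library while every title says TMD8, so all were taken as TMD8.

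Libraries held 31.3 to 38.2 M counts (M, 1e6 counts), so that 3 counts in a library correspond to 0.0786 to 0.0959 counts per 1e6 (CPM) before scaling. All other CPM values are scaled by the trimmed mean of M values. IRF4 itself stood at 519 ± 10.3 CPM in IRF4 shRNA libraries against 1495 ± 72.4 CPM in controls of series 1, and at 703 ± 13.3 against 1467 ± 44.9 CPM in series 2 (SD, n = 3 each). The 6 B cell markers summed to 6479 to 6814 CPM in IRF4 shRNA libraries and 4530 to 5113 CPM in controls. T cell markers (4 of 5 with values) summed to 4.21 to 5.69 against 5.24 to 7.96 CPM, with CD3E at 0 in every control, and myeloid markers to 0.299 to 0.871 against 0.153 to 0.824 CPM, with MPO at 0 in all libraries. The only erythroid marker with values lay at 0.136 to 0.460 against 0.127 to 0.494 CPM. Within each group, counts of single libraries departed from the group's mean in step with GC content, by an amount that varied by library. Spearman's rho across 15832 genes, which are not independent replicates, was 0.24 to 0.31 in IRF4 shRNA libraries and -0.50 to -0.05 in controls of series 1, and -0.33 to -0.19 in IRF4 shRNA libraries and -0.35, 0.42 and 0.60 in controls 4, 5 and 6 of series 2. The transcripts of IKZF2, IKZF5 and CRBN are low in GC (35.4%, 35.8% and 36.6%, against a median of 48.0% of tested genes), and their values with the GC trend removed are given below beside the others.

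Promoter sequences are shown for a member called in each direction, IKZF1 (lower with IRF4 shRNA) and IKZF2 (higher). RefSeq's promoter table on GRCh38.p14 matched 5 of the 6 genes, all but IKZF3, and the 250 bases before the most upstream start listed there are printed 5′ to 3′. For IKZF1 that RefSeq start lies downstream of the gene start in the count table, 50304068, so the printed window falls inside the gene as the table places it. The IKZF2 window lies wholly upstream of the gene in the table. Capitals mark TGGGAA, the core of the Ikaros binding motif.
IKZF1, chr7:50304466-50304715, plus strand: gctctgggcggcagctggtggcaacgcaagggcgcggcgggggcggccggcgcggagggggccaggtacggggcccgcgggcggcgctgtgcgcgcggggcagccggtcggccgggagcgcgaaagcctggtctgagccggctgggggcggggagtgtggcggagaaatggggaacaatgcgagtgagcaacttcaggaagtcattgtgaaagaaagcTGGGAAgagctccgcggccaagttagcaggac
IKZF2, chr2:213152457-213152706, minus strand: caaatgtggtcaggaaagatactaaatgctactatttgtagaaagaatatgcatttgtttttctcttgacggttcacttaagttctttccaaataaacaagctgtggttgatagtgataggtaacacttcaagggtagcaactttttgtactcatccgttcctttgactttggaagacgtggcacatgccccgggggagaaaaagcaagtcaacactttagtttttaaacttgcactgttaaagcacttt
The search covered both strands of all 12 windows of the 5 genes. TGGGAA was found in 1 of the 12, the IKZF1 window above, with its first base 32 bases before the start, and it occurs in 20.8% of the 35116 windows of all genes. GGAA followed after any 2 bases by GAAA, a composite site that IRF4 binds with ETS family partners, and GAAA followed after any 2 bases by GAAA, an interferon response type of site, were in none of the 12 windows, and occur in 2.41% and 3.02% of all windows. The last 2 motifs end in the same letters. A match describes letters only and shows no binding.

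IKZF1 and IKZF3 were the abundant members of the family in TMD8, and CRBN and the other members lay far below them per length. Dividing CPM by the merged exon length gave IKZF1 55.4 ± 1.16 CPM per kb in IRF4 shRNA libraries and 67.3 ± 2.15 in controls, and IKZF3 36.7 ± 3.94 against 43.6 ± 2.88 (SD, n = 6 each). IKZF1 ranked 528th and IKZF3 840th of 15832 genes in controls. CRBN at 3.11 ± 0.139 against 3.20 ± 0.344 CPM per kb and IKZF5 at 2.77 ± 0.228 against 3.33 ± 0.463 were neighbours whose ranges overlapped in both groups. IKZF4 followed at 1.07 ± 0.0700 against 1.03 ± 0.109, and IKZF2 was lowest at 0.531 ± 0.0510 against 0.409 ± 0.0517. The order of all other neighbours held beyond their spread in both groups. For comparison, IRF4 stood at 104 ± 17.1 against 251 ± 9.48 CPM per kb, above each of the 6 genes. Merged exon length counts every annotated exon of a gene, and which isoforms TMD8 uses was not tested.

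**Figure D1:**
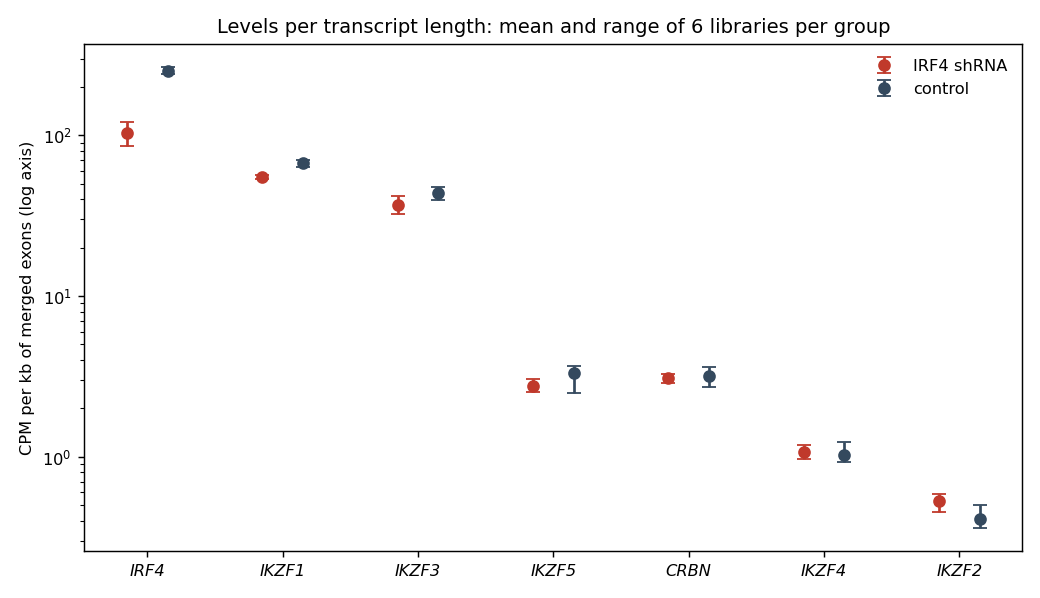
CPM per kb of merged exon (log axis) of IRF4 and the 6 genes, as the mean (point) and range (bar) of 6 IRF4 shRNA and 6 control libraries. IRF4 is the highest. IKZF1 and IKZF3 follow with control means of 67.3 and 43.6, IKZF5 and CRBN overlap at 3.33 and 3.20, and IKZF4 at 1.03 and IKZF2 at 0.409 are lowest.

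IKZF1 fell with IRF4 shRNA. Its levels were 603, 599 and 586 CPM in the IRF4 shRNA libraries of series 1 and 624, 608 and 612 CPM in those of series 2. Controls held 698, 764 and 751 CPM in series 1 and 721, 733 and 746 CPM in series 2. Every IRF4 shRNA library lay below every control, and the mean of 605 ± 12.7 CPM was 82.3% of the control mean of 735 ± 23.4 CPM on the fitted scale (SD, n = 6 each). The log2 fold change was -0.28 (SE 0.03, edgeR adjusted p = 1.1e-06), with a 95% interval of -0.34 to -0.22. It was -0.31 in series 1 (edgeR adjusted p = 3.46e-05) and -0.24 in series 2 (edgeR adjusted p = 0.00159), and the difference between the series, 0.05 (SE 0.05), did not pass (edgeR adjusted p = 0.568). In a bulk sample, fewer cells of a kind and less RNA per cell cannot be told apart. IKZF1 lies at chr7 50304068 to 50405101 on the plus strand of hg38, its GC content of 48.3% is near the median, and its 23 transcripts in GENCODE are summed in its count. Ikaros is known for spliced forms that lack DNA binding fingers, which a gene count does not separate.

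IKZF3 also fell, by an amount that differed between the library series. In series 1 it had 333, 326 and 339 CPM with IRF4 shRNA against 429, 446 and 478 CPM in controls, with no overlap. In series 2 it had 420, 393 and 393 CPM against 453, 396 and 416 CPM, and the groups overlapped. The effect on the log2 scale was -0.44 in series 1 (SE 0.04, edgeR adjusted p = 4.17e-06). Series 2 gave -0.06 (SE 0.06, edgeR adjusted p = 0.455), with a 95% interval of -0.18 to 0.07. The difference between the series was 0.37 (SE 0.07) and passed the test (edgeR adjusted p = 0.0108). Over all libraries the mean was 368 ± 39.4 against 436 ± 28.8 CPM, which is -0.25 on the log2 scale (SE 0.07, edgeR adjusted p = 0.00599). Without control replicates 5 and 6, which stand apart in their GC deviation, IKZF3 fell in series 2 as well (-0.17, edgeR adjusted p = 0.00467, with 1 control left, assumed to vary like the other libraries), and the difference between the series no longer passed (0.27, edgeR adjusted p = 0.0898). IKZF3 lies at chr17 39757718 to 39864312 on the minus strand.

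IKZF2, the lowest of the 6 genes, rose with IRF4 shRNA. Series 1 held 6.86, 5.55 and 5.95 CPM with IRF4 shRNA against 4.74, 6.09 and 5.30 CPM in controls, and these overlapped. Series 2 held 7.13, 6.96 and 6.51 CPM against 5.02, 4.41 and 4.44 CPM, with no overlap. Behind these values were 181 to 256 counts per IRF4 shRNA library and 144 to 209 per control, 1395 against 993 in sum. The log2 fold change was 0.38 over all libraries (SE 0.09, edgeR adjusted p = 0.00379), 0.18 in series 1 (95% interval -0.09 to 0.46, edgeR adjusted p = 0.257) and 0.58 in series 2 (95% interval 0.34 to 0.82, edgeR adjusted p = 0.00294). The difference between the series, 0.38 (SE 0.16), did not pass (edgeR adjusted p = 0.129). With 1 library left out, the series 1 value ran from 0.089 to 0.28 without passing, lowest without IRF4 shRNA replicate 1 or control replicate 1 and highest without control replicate 2. With the GC trend removed the values were 0.44 over all libraries (edgeR adjusted p = 0.000124), 0.37 in series 1 (edgeR adjusted p = 0.0188) and 0.52 in series 2 (edgeR adjusted p = 0.0022). The difference between the series was then 0.14 (edgeR adjusted p = 0.64). Helios is best known from T cells and their regulatory subset. The T cell markers of these libraries are mostly CD4 counts, with CD4 at 4.25 ± 0.560 CPM with IRF4 shRNA against 5.56 ± 1.02 CPM (edgeR adjusted p = 0.0181 over all libraries). In series 2 neither of the 2 tested T cell markers was called. Their part in the IKZF2 result was not tested. IKZF2 lies at chr2 212999691 to 213152427 on the minus strand.

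IKZF5 fell in series 1 and was not called in series 2. In series 1 it had 12.5, 12.97 and 12.6 CPM with IRF4 shRNA against 17.1, 18.1 and 18.1 CPM in controls, or -0.49 on the log2 scale (SE 0.07, edgeR adjusted p = 7.98e-05). In series 2 it had 14.4, 14.5 and 15.1 CPM against 17.7, 15.1 and 12.4 CPM, or -0.02 on the log2 scale (95% interval -0.30 to 0.25, edgeR adjusted p = 0.896). The groups were apart in series 1, while in series 2 the 3 controls spanned the IRF4 shRNA libraries. The difference between the series was 0.45 (SE 0.14, edgeR adjusted p = 0.0494), and it did not pass with the GC trend removed (0.23, edgeR adjusted p = 0.161) or without control replicates 5 and 6 (0.22, edgeR adjusted p = 0.39), and passed in 4 of 18 alternatives. With the GC trend removed the effect was -0.32 in series 1 (edgeR adjusted p = 0.00105) and -0.083 in series 2 (edgeR adjusted p = 0.43). Over all libraries the value was -0.26 (SE 0.09, edgeR adjusted p = 0.028), and -0.20 with the GC trend removed (edgeR adjusted p = 0.00634). Without control replicates 5 and 6 it was -0.38 over all libraries (edgeR adjusted p = 0.000231). In series 2 the value was then -0.27, with 1 control left. The call over all libraries was lost when any 1 of IRF4 shRNA replicates 1, 2 and 3 or of control replicates 1, 2, 3 and 4 was left out (-0.25 to -0.22, edgeR adjusted p of 0.0542 to 0.0744). It was also lost with library size alone (-0.19, edgeR adjusted p = 0.112). Pegasus, its product, is the most distant member of the family in its DNA recognition. The gene lies at chr10 122990807 to 123008812 on the minus strand, and its exons overlap those of PSTK on the other strand, which had 2.60 ± 0.149 against 2.82 ± 0.273 CPM (log2 fold change -0.12, edgeR adjusted p = 0.304).

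IKZF4, which codes for Eos, a partner of FOXP3 in regulatory T cells, did not pass in any comparison. It ranged from 6.56 to 8.03 CPM with IRF4 shRNA and from 6.30 to 8.39 CPM in controls, so the groups overlapped throughout. The log2 fold change over all libraries was 0.05 (SE 0.08, edgeR adjusted p = 0.611), with a 95% interval of -0.11 to 0.22. Its summed counts were 1551 with IRF4 shRNA and 1389 in controls. IKZF4 lies at chr12 56007659 to 56038435 on the plus strand.

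**Figure D2:**
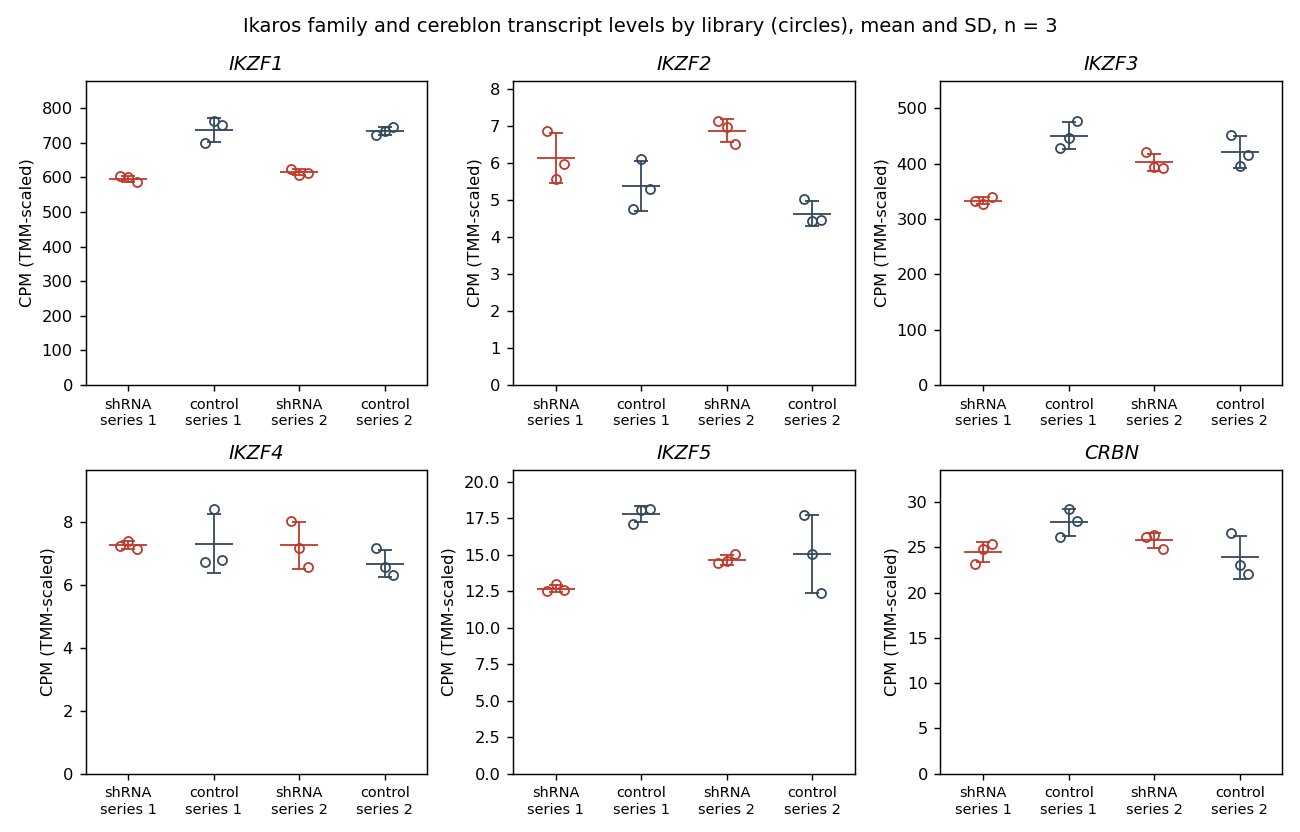
CPM of each of the 6 genes in every library (circles), with IRF4 shRNA left of control within library series 1 and then within series 2, and the mean and SD of each set of 3 libraries. IKZF1 with IRF4 shRNA lies below all controls in both series, IKZF3, IKZF5 and CRBN do so in series 1, and IKZF2 with IRF4 shRNA lies above all controls in series 2.

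CRBN, the receptor through which lenalidomide acts, showed no called change over all libraries. It had 23.2, 24.8 and 25.4 CPM with IRF4 shRNA against 26.2, 29.2 and 27.9 CPM in controls of series 1, with no overlap. In series 2 it had 26.1, 26.3 and 24.8 CPM against 26.6, 23.0 and 22.04 CPM, with overlap. The overall log2 fold change was -0.04 (SE 0.07, edgeR adjusted p = 0.657), with a 95% interval of -0.18 to 0.10. Series 1 alone gave -0.19 (SE 0.06, edgeR adjusted p = 0.0261), which became -0.03 with the GC trend removed (edgeR adjusted p = 0.725) and was lost without control replicate 2 or 3 or IRF4 shRNA replicate 1 or 2 (-0.20 to -0.15, edgeR adjusted p of 0.056 to 0.106). It was also lost with library size alone (-0.11, edgeR adjusted p = 0.152) and by DESeq2 (adjusted p = 0.0513). Series 2 gave 0.12 (SE 0.08, edgeR adjusted p = 0.271), which passed without control replicate 4 (0.19, edgeR adjusted p = 0.0286) and was 0.051 with the GC trend removed (edgeR adjusted p = 0.525). The difference between the series, 0.29 (SE 0.10), did not pass (edgeR adjusted p = 0.0721), but passed without control replicate 4 (0.37, edgeR adjusted p = 0.00533) and was 0.077 with the GC trend removed (edgeR adjusted p = 0.619). CRBN lies at chr3 3144628 to 3179727 on the minus strand. The exons of CRBN overlap those of TRNT1, a tRNA maturation enzyme gene on the other strand, which had 30.4 ± 1.55 against 33.8 ± 2.06 CPM (log2 fold change -0.15, edgeR adjusted p = 0.0187, a call that held in 17 of 22 alternatives and was lost without IRF4 shRNA replicate 3 or 5 and, at -0.081, with library size alone). They also overlap those of AC024060.1, an antisense gene without values here. Whether the counting used strand is not given, so reads of the exon overlaps of CRBN, IKZF5 and IKZF1 cannot be told apart.

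Over all libraries 4 of the 6 genes were called, IKZF2 higher and IKZF1, IKZF3 and IKZF5 lower, where 48.2% of all 16437 tested genes were called (24.2% higher and 23.9% lower). Groups that did not overlap were found for 1 of the 6, IKZF1, where 30.8% of all genes had such groups and 14.7% had them lower. In series 1, 4 of 6 were called, all lower (IKZF1, IKZF3, IKZF5 and CRBN), against 50.5% of all genes called and 24.6% called lower, and the same 4 had groups without overlap, against 58.2% of all genes and 28.3% lower. In series 2, 2 of 6 were called, IKZF2 higher and IKZF1 lower, against 38.1% called (20.2% higher and 17.9% lower). The same 2 had no overlap, against 50.3% of all genes (26.0% higher and 24.3% lower). The difference between the series was called for 2 of 6, IKZF3 and IKZF5, both positive, against 13% of 17261 genes called and 5.03% called positive. With so many calls among all genes, the counts over all libraries and in series 2 lie near the background. None of these counts, those of series 1 and of the difference included, is a result about the 6 genes as a group. The CRBN call in series 1 was lost with the GC trend removed (-0.03, edgeR adjusted p = 0.725), and the IKZF5 difference passed in 4 of 18 alternatives. The median log2 fold change of the 6 was -0.14 over all libraries, -0.25 in series 1 and 0.05 in series 2, against -0.006, -0.002 and 0.001 for all tested genes.

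**Figure D3:**
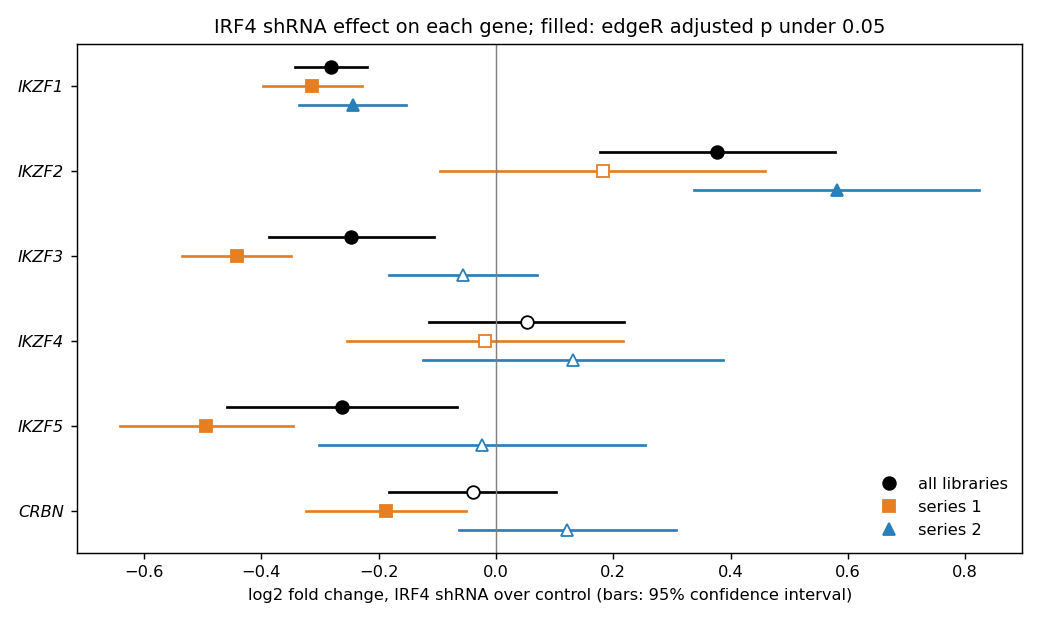
Log2 fold change of IRF4 shRNA over control with 95% intervals for each of the 6 genes over all libraries, in library series 1 and in library series 2. Intervals of IKZF1 lie below 0 in all 3 fits, those of IKZF3 and IKZF5 lie below 0 over all libraries and in series 1, that of CRBN in series 1, and that of IKZF2 lies above 0 over all libraries and in series 2.

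**Figure D4:**
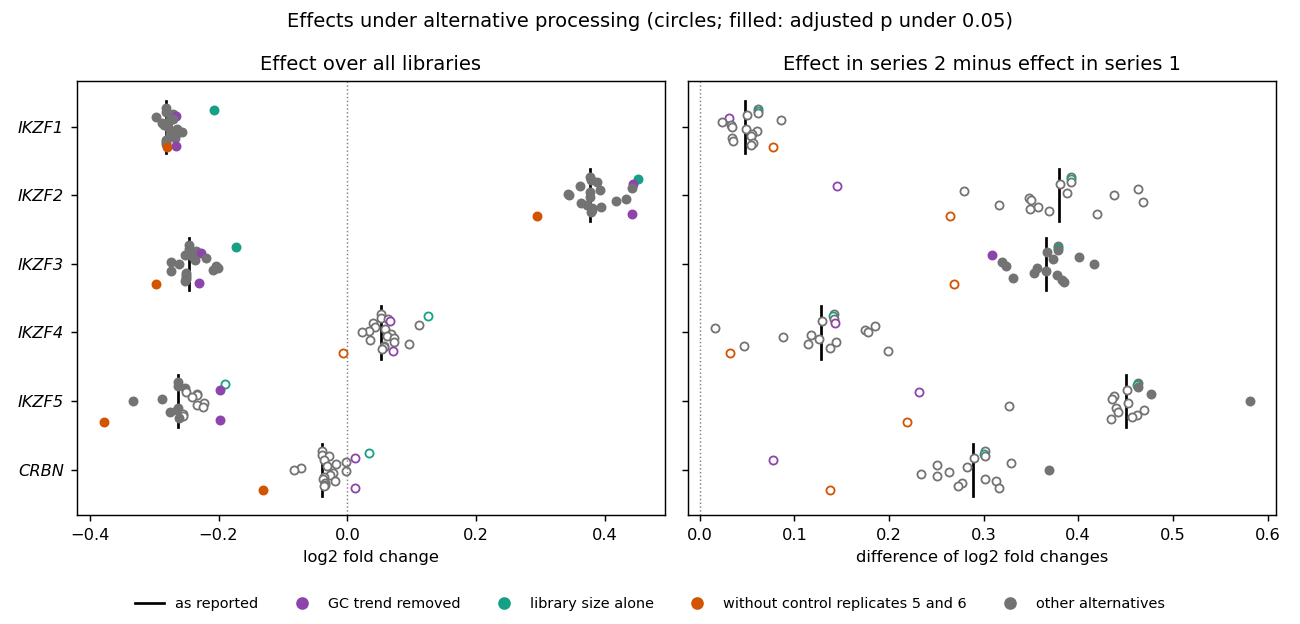
Log2 fold change of each gene over all libraries (left) and its difference between series 2 and series 1 (right) under each alternative (circles, filled for adjusted p under 0.05), with the reported value as a line. On the left, the values of IKZF1 stay between -0.30 and -0.21, those of IKZF2 between 0.29 and 0.45 and those of IKZF3 between -0.30 and -0.17, while those of CRBN lie on both sides of 0.

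The shares of IKZF1 and IKZF3 in the family per length moved in opposite directions in the library series. In series 1 IKZF1 made up 58.5% to 59.9% of the summed CPM per kb of the 5 IKZF genes with IRF4 shRNA and 56.5% to 58.3% in controls, and in series 2 it made up 55.0% to 56.1% against 56.8% to 60.4%. IKZF3 made up 35.6% to 37.0% against 37.2% to 39.3% in series 1, and 39.4% to 40.5% against 35.7% to 38.9% in series 2. None of these ranges overlapped within a series. The 2 genes made up most of the sum, so a rise in 1 share largely forces a fall in the other. Over all libraries the moves cancelled, so that IKZF1 made up 57.5% ± 2.08 with IRF4 shRNA and 58.2% ± 1.67 in controls, and IKZF3 37.99% ± 2.06 against 37.7% ± 1.41 (SD, n = 6 each). IKZF2 made up 0.495% to 0.605% with IRF4 shRNA and 0.319% to 0.415% in controls, with no overlap. IKZF1 and IKZF3, most of the sum, fell over all libraries, so part of this rise comes from the sum. The CPM of IKZF2 itself overlapped over all libraries. The share of IKZF4, which was not called, was 1.11% ± 0.0806 with IRF4 shRNA against 0.887% ± 0.0780 in controls (SD, n = 6 each). The ratio of IKZF1 to IKZF2 per length was 97.7 to 121 with IRF4 shRNA and 140 to 188 in controls, and the fall of IKZF1 enters it. These ratios do not depend on scaling between libraries, but they were not taken with the GC trend removed. The ratio of IKZF3 to IKZF1 per length, which largely restates the shares of these genes, ran in opposite directions in the series. It was 0.594 to 0.633 with IRF4 shRNA against 0.638 to 0.695 in controls of series 1, and 0.702 to 0.736 against 0.590 to 0.685 in series 2, without overlap in either. In series 2, control replicates 5 and 6, which stand apart in their GC deviation, had 0.590 and 0.609. Control replicate 4 had 0.685, near the lowest IRF4 shRNA value of 0.702 and within the range of the series 1 controls. The ratio of CRBN to IKZF1 per length was 0.0521 to 0.0587 with IRF4 shRNA and 0.0400 to 0.0518 in controls, again without overlap. The fall of IKZF1 enters this ratio too, and the CPM of CRBN itself overlapped over all libraries. The groups nearly met at 0.0521 and 0.0518, and the lowest controls were replicates 5 (0.0425) and 6 (0.0400). CRBN has 36.6% GC and IKZF1 48.3%, and the part of the GC deviations in this ratio was not tested. The shares and ratios were compared by their ranges, with no test and no background from other genes.

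Of the 23 genes of the cereblon ligase and its regulators, 5 were called higher, 2 lower and 16 neither, where 48.2% of all tested genes were called (24.2% higher and 23.9% lower), with a median log2 fold change of -0.004. Series 1 had 4 higher and 5 lower, and series 2 had 2 higher and 2 lower. The shares of all tested genes called, 50.5% in series 1 and 38.1% in series 2, apply to the series counts of each list below as well. UBE2G1, the ubiquitin conjugating enzyme that extends chains on lenalidomide targets, fell to 138 ± 6.74 CPM with IRF4 shRNA, against 173 ± 7.49 CPM in controls (log2 fold change -0.32, SE 0.04, edgeR adjusted p = 8.48e-06). USP15, a deubiquitinase that acts against the same ligase, rose to 93.4 ± 4.43 CPM against 77.5 ± 6.99 CPM (0.27, edgeR adjusted p = 0.00119). COPS7A, a subunit of the COP9 signalosome, fell (-0.17, edgeR adjusted p = 0.00418, a call lost with library size alone), and RBX1, the RING subunit, rose (0.13, edgeR adjusted p = 0.0157). DDB1 and CUL4A, the adaptor and scaffold, are named after their values were seen. Their log2 fold changes were 0.01 (edgeR adjusted p = 0.784) and 0.00 (edgeR adjusted p = 0.965). With library size alone as the scaling, 10 of the 23 were higher and 1 lower, and without control replicates 5 and 6, 3 were higher and 6 lower, so the split of this list depended on these settings.

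Among 20 other proteins that cereblon is known to present to the ligase with one or another drug, 4 genes were higher, 5 lower and 11 neither, near the 48.2% called of all genes, with a median of 0.004. In series 1, 8 were higher and 6 lower, and in series 2, 3 were higher and 2 lower. The largest change was TP63, a p53 family factor, at 296 ± 16.3 CPM with IRF4 shRNA against 154 ± 13.1 CPM in controls (1.93-fold, log2 fold change 0.95, SE 0.06, edgeR adjusted p = 2.47e-09). ZNF827, a zinc finger protein, rose (0.42, edgeR adjusted p = 1.89e-06) and so did ZFP91 (0.23, edgeR adjusted p = 0.000586), while PATZ1 fell (-0.28, edgeR adjusted p = 6.03e-05). CSNK1A1, the casein kinase degraded with lenalidomide, had 0.05 (edgeR adjusted p = 0.145) and GSPT1, a translation termination factor, -0.01 (edgeR adjusted p = 0.741), both named after their values were seen. Library size alone gave 6 higher and 3 lower.

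Of 18 genes of the corepressor complexes that Ikaros proteins recruit, 4 were higher, 2 lower and 12 neither, where 48.2% of all genes were called, with a median of 0.05. In series 1, 10 were higher and 2 lower with a median of 0.14, where 50.5% of all genes were called. In series 2, 3 were higher and 1 lower with a median of 0.02, where 38.1% of all genes were called. CHD4, the NuRD remodelling ATPase that binds Ikaros, rose to 460 ± 12.9 CPM with IRF4 shRNA against 311 ± 12.2 CPM in controls (1.48-fold, edgeR adjusted p = 1.94e-09). Its relative CHD3 rose to 505 ± 18.1 CPM against 369 ± 5.64 CPM (1.37-fold, edgeR adjusted p = 6.74e-09), and the deacetylase HDAC1 to 72.0 ± 1.17 CPM against 57.3 ± 1.65 CPM (edgeR adjusted p = 5.16e-07). CTBP2, a corepressor at a low level here with 85 against 165 summed counts, fell (-1.06, SE 0.23, edgeR adjusted p = 0.00136). Library size alone gave 10 higher and 1 lower, and leaving out control replicates 5 and 6 gave 7 higher and 2 lower.

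Genes known to answer to lenalidomide in ABC lymphoma split in both directions, with 3 higher, 5 lower and 2 neither of 10 tested, where 48.2% of all genes were called (24.2% higher and 23.9% lower), and a median of -0.11. Series 1 had 4 higher and 5 lower, and series 2 had 3 higher and 4 lower. IFNB1 was below the filter. IRF7, an interferon pathway factor, rose to 70.0 ± 18.3 CPM with IRF4 shRNA against 17.4 ± 7.10 CPM in controls (log2 fold change 2.0, edgeR adjusted p = 6.01e-06), MALT1, a paracaspase of NF-kB signalling, to 152 ± 2.05 against 98.8 ± 8.78 CPM (1.54-fold, edgeR adjusted p = 9.86e-08), and BCL6, the germinal centre repressor, also rose (0.48, edgeR adjusted p = 1.02e-05). TNFAIP3, which codes for the NF-kB inhibitor A20, fell to 114 ± 13.8 CPM against 223 ± 2.59 CPM (-0.97, edgeR adjusted p = 1.02e-08).

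Of 15 genes that Ikaros or Aiolos is known to regulate in B lineage cells, 12 had values and 10 were tested, with 5 higher, 4 lower, 1 neither and a median of 0.14, where 48.2% of all genes were called. The median was 0.008 in series 1 (4 higher and 4 lower) and 0.20 in series 2 (6 higher and 3 lower). TXNIP, an inhibitor of glucose uptake that Ikaros induces in pre-B cells, had 160 ± 5.78 CPM with IRF4 shRNA and 2.05 ± 0.247 CPM in controls (log2 fold change 6.28, edgeR adjusted p = 2.02e-17). CCND3, a G1 cyclin, rose to 33.9 ± 5.20 CPM against 17.1 ± 1.54 CPM (0.98, edgeR adjusted p = 5.91e-07), and CCND2, its relative, fell to 394 ± 29.1 CPM against 560 ± 24.1 CPM (-0.51, edgeR adjusted p = 4.51e-07). CNR2, a cannabinoid receptor, fell to 12.9 ± 1.47 CPM against 32.8 ± 1.18 CPM (-1.34, edgeR adjusted p = 3.93e-10), and CR2, the complement receptor CD21, fell to 97 summed counts against 204 (-1.18, edgeR adjusted p = 0.000194). These lists were compiled with earlier results of these data known, so their counts are descriptions.

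**Figure D5:**
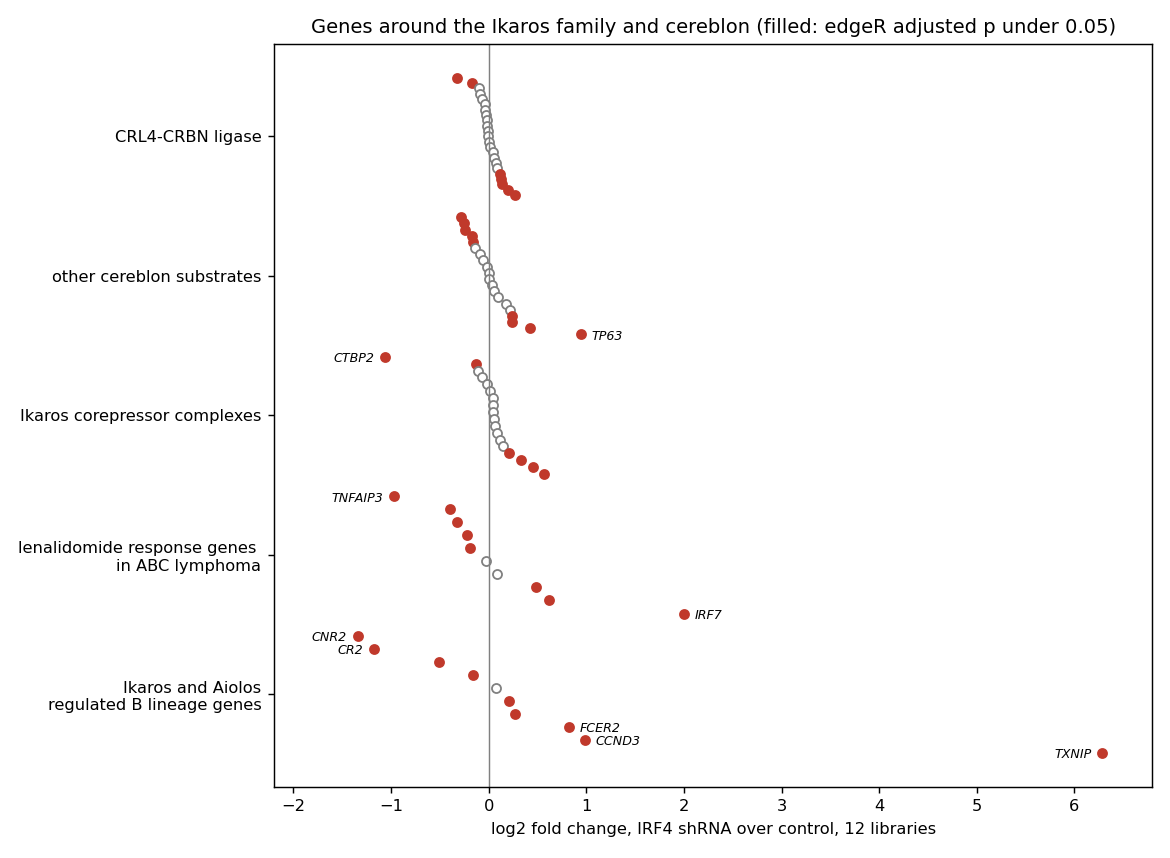
Log2 fold change over all 12 libraries of every tested gene of the 5 lists, with filled points for edgeR adjusted p under 0.05. TXNIP at 6.28 and IRF7 at 2.0 are the farthest to the right, and CNR2 at -1.34 the farthest to the left.

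Other genes followed the members across the 12 libraries. With IKZF1, the highest Pearson correlations of log2 CPM among genes of at least 10 CPM were KLHL14 (0.990), FARP2 (0.990) and DTD2 (0.989), whose own log2 fold changes were -1.56, -0.47 and -0.72. With IKZF3 they were SCD (0.975), GGA2 (0.975) and PRDM1 (0.973). With IKZF5 they were C11orf58 (0.981), TIA1 (0.975) and LTN1 (0.974), and with CRBN LMBRD2 (0.968), SLTM (0.959) and PICALM (0.951). The 12 points of each correlation share the 2 groups, the 2 library series and the GC deviations of the libraries. Within the groups, the correlations with IKZF1 were 0.671 to 0.851 with IRF4 shRNA and 0.814 to 0.934 in controls. Those with the other members were 0.844 to 0.999 within the groups.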

How the data were processed

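The deposited table gives 1 value for each of 26318 genes and 12 libraries, of which 66.6% were whole at a tolerance of 1e-06. From their range and fractions the deposited values were taken for expected counts without normalization, which no source used here states. STAR, HTSeq and hg38 were used, per the submitters' processing notes, without versions. The annotation, the step that gave fractional values and any use of strand are not given in the sources used here. Gene ends in the table lie 1 past the last base and were reduced by 1.

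The deposited counts were rounded and tested with edgeR 4.0.16 (quasi-likelihood, TMM, filterByExpr with a minimum count of 10, Benjamini-Hochberg adjustment over all tested genes) in R 4.3.3, over 16437 genes for all libraries, 16572 in series 1, 16614 in series 2 and 17261 for the difference of the effect between series (series 2 minus series 1). Called means adjusted p under 0.05, and a positive log2 fold change means a higher level with IRF4 shRNA. The comparison over all libraries used no covariate. Exon length and GC came from GENCODE release 29, matched for 24812 genes. DESeq2 1.42.0 served as an alternative, beside library size alone, no filter, a GC trend removed by lowess, replicate blocks and left-out libraries. The fits were tested on simulated data. Separate cultures are not stated for the libraries of a group, and the p-values then reflect only the spread among these samples, possibly a technical one. Floors cover counting error only.

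The members and gene lists were chosen with earlier results of these data known. Named genes are the 6 members, IRF4, up to 4 genes of the smallest p of each list, list genes called with over 2-fold change, and the 3 genes most correlated with IKZF1, IKZF3, IKZF5 and CRBN. Genes named beside these are marked as such, overlapping partners PSTK and TRNT1 and the markers apart.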

Additional observations from a re-analysis of the deposited data

Results flagged for a closer look

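The effect of IRF4 shRNA differed between the library series, by the test of the difference itself, for IKZF3 (0.37 on the log2 scale, series 2 minus series 1, edgeR adjusted p = 0.0108), for IKZF5 (0.45, edgeR adjusted p = 0.0494) and for the targeted gene IRF4 (0.46, edgeR adjusted p = 0.00106), and for no other member. The IKZF5 difference passed in 4 of 18 alternatives (0.23, edgeR adjusted p = 0.161 with the GC trend removed), and the IKZF3 difference passed in 17 of 18 and not without control replicates 5 and 6 (0.27, edgeR adjusted p = 0.0898). IRF4 was lower in series 1 than in series 2 with IRF4 shRNA, at 519 ± 10.3 and 703 ± 13.3 CPM (SD, n = 3 each). The part of this, of the GC deviations of control replicates 5 and 6 and of what the series number stands for in the IKZF3 and IKZF5 differences was not tested. In groups of 6 libraries no sample of a member or of IRF4 stood apart by Dixon's test.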

How the results depend on the processing

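Over all libraries IKZF1, IKZF2 and IKZF3 kept direction and call in all 22 alternatives, with edgeR or DESeq2 adjusted p of up to 0.0422 for IKZF3, while IKZF5 was called in 12 of 22 (adjusted p of 0.112 with library size alone) and CRBN in 1 (without control replicates 5 and 6, -0.13, adjusted p = 0.0378). Directions turned for CRBN over all libraries (0.034 with library size alone, 0.011 with the GC trend removed and 0.012 with the GC trend removed under the block) and in series 2 without control replicates 5 and 6 (-0.043), an alternative chosen after seeing the data. They also turned for IKZF4 over all libraries without those replicates (-0.0074) and in series 1 (0.057 with library size alone, -0.077 to 0.091 with 1 library left out), for IKZF3 in series 2 (0.011 with library size alone), and for IKZF5 in series 2 (0.043 with library size alone, -0.16 to 0.10 with 1 library left out). The cause was not tested. In series 2, 4 members were called without control replicates 5 and 6. For the difference between series, 1 member was called with library size alone, with no filter and with the GC trend removed, and 0 without control replicates 5 and 6 (1 to 3 with 1 library left out). All genes called for it fell in number to 1395 with the GC trend removed and 202 without control replicates 5 and 6, against 2248 (723 to 5244 with 1 library left out). Calls over all libraries were 50.3% higher, and 63.9% with library size alone, and calls of the difference were 38.7% higher, and 54.6% with the GC trend removed.

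Libraries of the 2 groups with the same number correlated at -0.26 to 0.13 in their deviations (1 of 6 pairs over 0.1), so the numbers were not taken as pairs, and the replicate block of the titles gave 6942 called genes over all libraries, against 7918. IKZF5 over all libraries was not called under the block of the titles (adjusted p = 0.0949) or of the library names (adjusted p = 0.0879), and RBX1 was not called under that of the titles. Depth left IKZF2 with 144 to 256 counts a library.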
